A study of Mus musculus with 8 samples.

Results

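The TNF pathway was described here by 10 genes for its ligands (*Tnf* and *Ltb*), its receptors (*Tnfrsf1a*, *Tnfrsf1b*, *Fas* and *Tnfrsf10b*), caspase-8 and its regulator (*Casp8* and *Cflar*) and the inhibitor of apoptosis proteins (*Birc2* and *Birc3*). They were measured by every probe set with such a gene as its only symbol in the array annotation, which gave 16 of 22626 probe sets and 10 of 12393 genes. The cells were CD11b+Gr-1+ immature myeloid cells (IMCs), sorted from the spleens of 4 male *Tff2*-null mice (Tff2-/-) on a C57BL/6 background that were 16 weeks old. The mice had received 3% dextran sodium sulfate (DSS), which injures the colon, for 5 days and were taken 14 days later. Each mouse gave 2 cultures of 7 days from its divided cells: an rTFF2 culture with the growth factor GM-CSF plus 3 μM recombinant mouse TFF2, and a control culture with GM-CSF alone. The labels give 5 nM as the dose of GM-CSF in both. The methods give another dose, as a mass per volume, and which dose was used was not settled here. All 8 cultures therefore lacked *Tff2* of their own, had been exposed to DSS in the animal and received GM-CSF, and no cells from wild-type mice or without GM-CSF were on these arrays.

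TNF is a cytokine of activated myeloid cells that binds the receptors TNFR1 and TNFR2. TNFR1 and Fas carry a death domain in the cell and can activate caspase-8, whereas the caspase-8 regulator cFLIP, encoded by *Cflar*, and the ubiquitin ligases cIAP1 and cIAP2, encoded by *Birc2* and *Birc3*, hold that activation back. TNFR1 with the cIAPs also activates NF-kB, a transcription factor that is known to induce *Tnf*, *Cflar* and *Birc3* themselves.

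The promoters of *Ltb* and *Fas* are shown because these genes had the largest fall and the largest rise among the members, and that of *Tnf* because it lies next to *Ltb*. Each sequence holds 250 bases before and 50 bases after the start of the gene, read 5′ to 3′ on its own strand, from RefSeq on the build GRCm38.p6.
*Ltb* (chr17:35194257-35194556, plus strand): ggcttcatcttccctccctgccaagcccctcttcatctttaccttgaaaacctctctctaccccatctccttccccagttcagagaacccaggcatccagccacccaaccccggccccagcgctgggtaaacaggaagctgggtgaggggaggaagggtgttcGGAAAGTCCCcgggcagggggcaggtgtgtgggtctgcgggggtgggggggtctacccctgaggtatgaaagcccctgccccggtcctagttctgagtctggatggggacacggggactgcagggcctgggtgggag
*Tnf* (chr17:35201958-35202257, minus strand): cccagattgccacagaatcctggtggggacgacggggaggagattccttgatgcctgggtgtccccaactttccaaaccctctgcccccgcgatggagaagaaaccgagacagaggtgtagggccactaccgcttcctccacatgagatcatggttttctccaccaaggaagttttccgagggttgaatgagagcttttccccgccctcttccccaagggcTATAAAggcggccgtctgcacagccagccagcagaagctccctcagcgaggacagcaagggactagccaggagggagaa
*Fas* (chr19:34290409-34290708, plus strand): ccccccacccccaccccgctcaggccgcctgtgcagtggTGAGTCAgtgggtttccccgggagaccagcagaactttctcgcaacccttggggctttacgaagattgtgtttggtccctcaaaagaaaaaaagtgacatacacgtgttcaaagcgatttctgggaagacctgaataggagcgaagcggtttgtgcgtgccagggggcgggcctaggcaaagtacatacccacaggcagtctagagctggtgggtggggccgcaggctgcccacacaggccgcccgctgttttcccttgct
The capitals mark a match to the NF-kB consensus in *Ltb*, 87 bases before the start, the letters TATAAA in *Tnf*, 29 bases before it, and a match to the AP-1 letters TGANTCA in *Fas*, 211 bases before it. Promoters were found for 9 of the 10 genes (10 promoters, with 2 for *Birc2*), and each motif was searched on both strands. The NF-kB consensus was in 1 of these 10 promoters, against 4.51% of all 32851 promoters, TGANTCA was in 1 of 10, against 7.81%, and TATAAA was in 2 of 10 (*Tnf* and *Cflar*), against 13.6%. A match of letters is a description of the sequence and does not show that a factor binds there.

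The deposited values are log2 signals from GCRMA, and differences are rTFF2 minus control on that scale. The difference of each probe set was tested with limma with the mouse as a block, and adjusted p values are Benjamini-Hochberg values over all 22626 probe sets with a threshold of 0.05. A log2 signal of 2.95 was taken as background, the 95th percentile of 38 measured genes of other tissues. The array medians lay between 4.09 and 4.20, and any 2 arrays correlated at 0.985 to 0.998. The 3′ minus 5′ difference of the *Actb* control probe sets, a sign of RNA quality, was 0.66, 0.74, 0.73 and 0.66 in the rTFF2 cultures of mice 1 to 4, against 0.48, 0.42, 0.62 and 0.58 in the control cultures, so that the groups did not overlap in it.

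The cultures had a myeloid identity after 7 days, with 10 of 10 myeloid markers above background, 5 of them higher with rTFF2. No array held the sorted cells before culture. Markers of neutrophils, of basophils and mast cells and of dendritic cells moved with the groups. Of 14 measured neutrophil markers 14 were higher with rTFF2, with a summed linear signal of 93096 to 108638 in the rTFF2 cultures and 38168 to 71199 in the control cultures. Of 11 basophil and mast cell markers 8 were higher (4269 to 7834 with rTFF2, against 211 to 517 in controls), and the other 3, *Mcpt4*, *Cma1* and *Tpsb2*, were at or under background. Of 13 markers of dendritic cells and MHC class II 11 were lower (9158 to 14103 with rTFF2, against 35292 to 46606 in controls), and *Flt3* and *Xcr1* were under background. Markers of lymphocytes were dim. *Cd3d*, *Cd3e*, *Cd79a* and *Ms4a1* were under background in both groups, 4 of 14 T and NK cell markers were above it, with 3 of the 14 lower (79 to 90 with rTFF2, against 93 to 112 in controls), and of 10 B cell markers *Cd22* alone was above it, and was higher (73 to 77 with rTFF2, against 61 to 67 in controls). The part of these cell types and of RNA quality in the results for the TNF pathway was not tested. In such bulk samples, fewer cells of a type and less RNA per cell cannot be told apart.

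Of the 16 member probe sets 9 rose with rTFF2, 1 fell and 6 did not pass the threshold. Among all probe sets tested, 13.7% rose and 12% fell. The calls of the members were the same for 16 of 16 probe sets without the mouse as a block, where 11.7% of all probe sets rose and 10.1% fell. The median difference was 0.58 over the member probe sets and -0.02 over all probe sets. In 10 member probe sets the rTFF2 values lay wholly above the control values and in 1 wholly below them, against 12.8% and 12.7% of all probe sets. By gene, *Tnfrsf1a*, *Tnfrsf1b*, *Fas*, *Cflar* and *Birc3* rose, *Ltb* fell, and *Tnf*, *Casp8* and *Birc2* passed in neither direction, while *Tnfrsf10b* was not above background. With 1 probe set for each gene, 14.5% of all genes rose and 13.3% fell. With the *Actb* difference as a covariate beside the block, 2 member probe sets rose (*Tnfrsf1b* and *Fas*) and *Ltb* fell. The differences of *Tnfrsf1a* and of the 4 *Cflar* probe sets, whose calls were lost, were then 0.54 to 1.01, against 0.55 to 0.78 without the covariate, and those of the *Birc3* probe sets were 0.35 and 0.67, against 0.81 and 0.91.

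**Figure D1:**
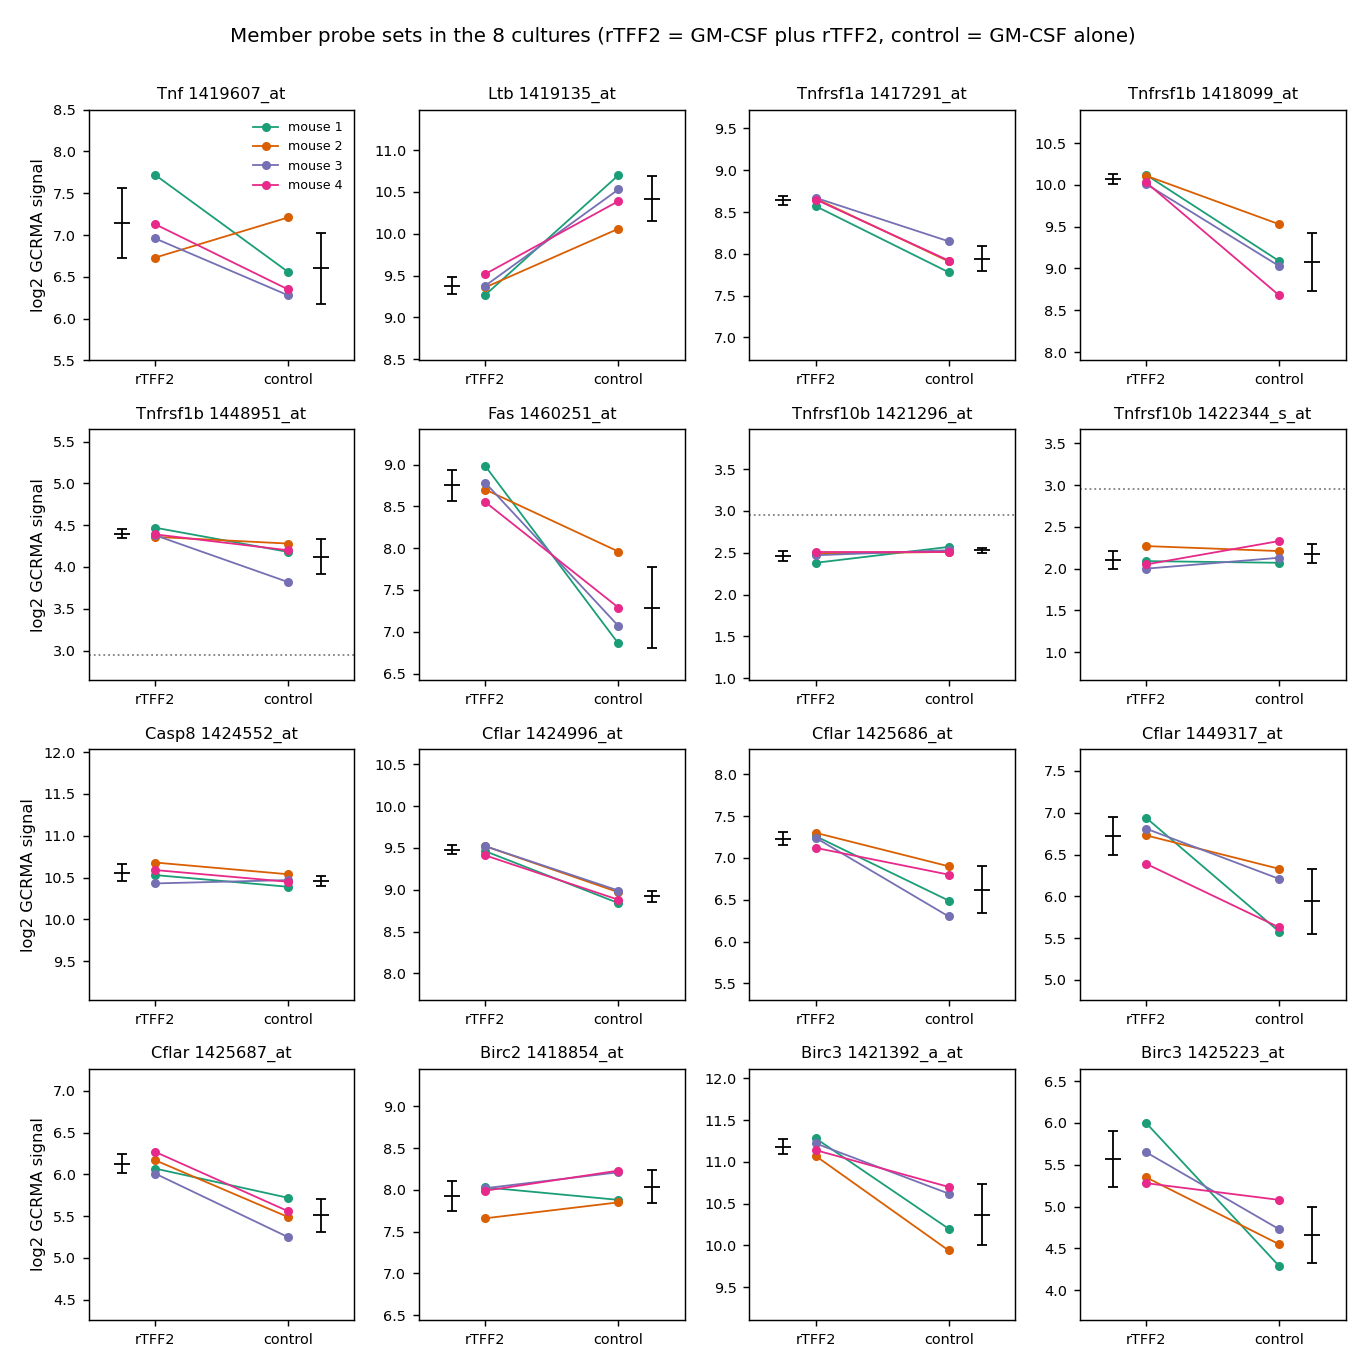
Log2 GCRMA signal (y axis, 3 units in every panel) of the 16 member probe sets in the rTFF2 culture and the control culture of each mouse, joined by a line, with the mean ± SD of each group (n = 4) beside the points and the background level of 2.95 as a dotted line where it falls in a panel. *Ltb* fell in 4 of 4 mice, the lines of *Fas* and of the 4 *Cflar* probe sets all run higher with rTFF2, and *Tnf* runs the other way in mouse 2.

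Of the ligands, *Ltb* fell in 4 of 4 mice, and *Tnf* was higher with rTFF2 in 3 of 4 mice and did not pass the threshold. *Ltb* encodes lymphotoxin beta, the membrane-bound partner of lymphotoxin alpha in the ligand of the lymphotoxin beta receptor. Its log2 signal was 9.27, 9.36, 9.38 and 9.52 in the rTFF2 cultures of mice 1 to 4, against 10.70, 10.06, 10.53 and 10.39 in the control cultures. Every rTFF2 culture lay under every control culture, and the spread was narrower with rTFF2 (9.38 ± 0.10, against 10.42 ± 0.27 in controls, SD, n = 4). The difference was -1.04 (SE 0.12, adjusted p = 0.0015 from limma), a level 2.05 times higher in the control cultures, and 1.51% of all probe sets fell further. *Ltb* kept its direction and its call in all 12 alternatives of the processing that were run for it (adjusted p from 1.7e-04 to 0.04). The dendritic cell and MHC class II markers were lower in the same cultures, and their part in the fall of *Ltb* was not tested.

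*Tnf* had log2 signals of 7.72, 6.73, 6.96 and 7.13 in the rTFF2 cultures, against 6.56, 7.21, 6.28 and 6.35 in the control cultures. The groups overlapped. Mouse 2 ran against the other mice, its rTFF2 culture being the lowest with rTFF2 and its control culture the highest control. The difference was 1.16, -0.47, 0.68 and 0.78 in mice 1 to 4 and 0.54 in the fit (SE 0.24, 95% interval -0.03 to 1.10, adjusted p = 0.15). Without mouse 2 it was 0.88 and passed (adjusted p = 0.0037), and with the *Actb* covariate it was 1.45 and did not pass (adjusted p = 0.057), nor did it in the other 10 alternatives (up to 0.42). *Tnf* lies between *Ltb* and *Lta*, the gene of lymphotoxin alpha, on chromosome 17. Relative to *Tnf* on the same array, *Ltb* changed by -1.58, and by between -2.60 and -0.22 in single mice.

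Each of the 3 receptor genes above background rose on its brightest probe set. *Fas* rose the most of the members, *Tnfrsf1b* about doubled, *Tnfrsf1a* rose less but evenly in the 4 mice, and *Tnfrsf10b* could not be read. *Fas* encodes the death receptor that is bound by Fas ligand. Its log2 signal was 8.98, 8.70, 8.78 and 8.55 in the rTFF2 cultures, against 6.86, 7.96, 7.07 and 7.29 in the control cultures. The lowest rTFF2 culture was above the highest control culture, and the control of mouse 2 again stood above the other controls. The difference was 1.46 (SE 0.20, 95% interval 0.98 to 1.94, adjusted p = 0.0028), or 2.75-fold, with 2.12, 0.74, 1.72 and 1.26 in mice 1 to 4. A larger rise was seen in 0.862% of all probe sets, and *Fas* passed in all 12 alternatives (adjusted p from 0.0013 to 0.036).

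*Tnfrsf1b* encodes TNFR2, the TNF receptor without a death domain. Its brighter probe set, 1418099_at, read 10.12, 10.11, 10.01 and 10.03 in the rTFF2 cultures, against 9.09, 9.53, 9.03 and 8.68 in the control cultures. The rTFF2 cultures lay close to each other, while the control cultures were spread more widely (SD 0.06 with rTFF2, against 0.35 in controls). The difference was 0.98 (SE 0.12, adjusted p = 0.0017), or 1.98-fold, and passed in all 12 alternatives. The second probe set of the gene, 1448951_at, was dim, with 4.47, 4.36, 4.38 and 4.39 in the rTFF2 cultures, against 4.18, 4.28, 3.82 and 4.20 in the control cultures. These groups did not overlap either, but the difference of 0.28 (SE 0.09) did not pass (adjusted p = 0.066), nor in any of its 12 alternatives, so that the probe sets of *Tnfrsf1b* disagreed in their calls and shared their direction.

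*Tnfrsf1a* encodes TNFR1, the death domain receptor of TNF. Its log2 signal was 8.57, 8.66, 8.67 and 8.65 in the rTFF2 cultures, against 7.78, 7.91, 8.15 and 7.92 in the control cultures. The groups were apart in every mouse, by 0.79, 0.74, 0.53 and 0.74 in mice 1 to 4. The difference was 0.70 (SE 0.07, adjusted p = 0.0010), or 1.62-fold, and with the *Actb* covariate it was 0.63 and did not pass (adjusted p = 0.077). *Tnfrsf10b*, the mouse receptor of the death ligand TRAIL, was read by 2 probe sets that averaged 2.46 and 2.10 with rTFF2, against 2.53 and 2.18 in controls. All of its 16 values were under the background level, so that no change of this gene was detectable here.

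**Figure D2:**
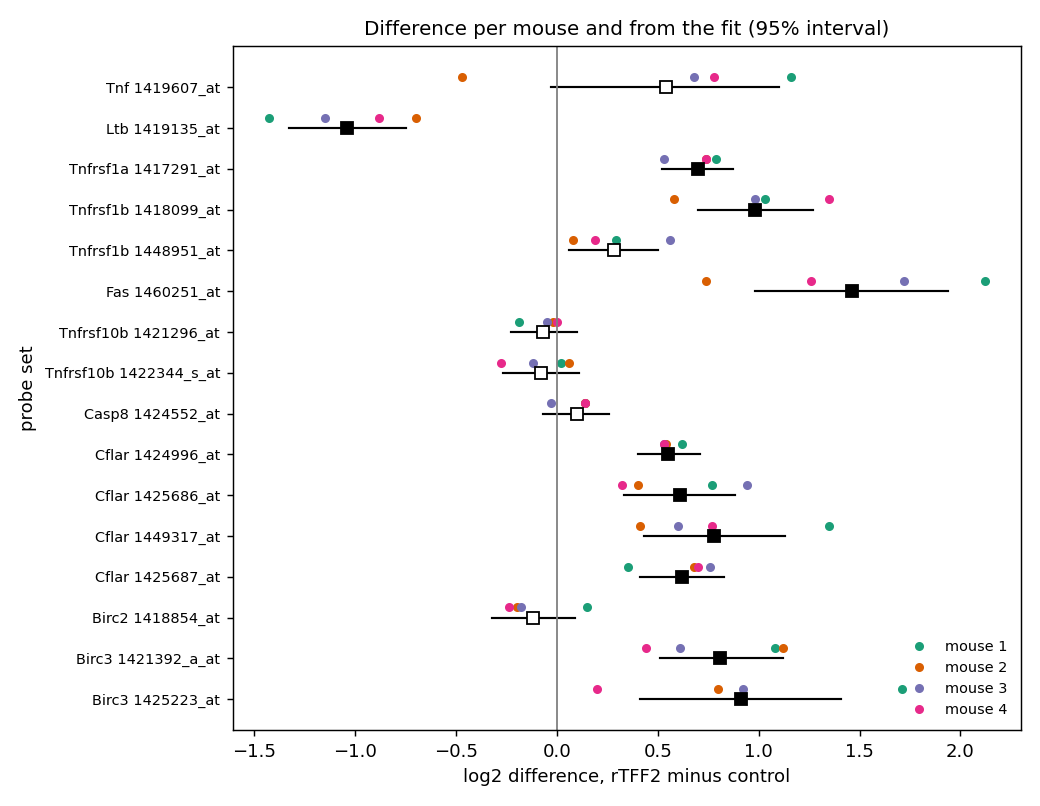
Log2 difference, rTFF2 minus control (x axis), of each member probe set (y axis). Coloured points are the 4 mice, squares with lines are the limma differences with their 95% intervals, and filled squares passed the threshold. Filled squares lie between 0.55 and 1.46 for the 9 probe sets that rose and at -1.04 for *Ltb*, and the 4 points of *Cflar* 1424996_at lie between 0.53 and 0.62.

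*Casp8* was high in both groups and did not pass the threshold, while all 4 probe sets of its neighbour *Cflar* rose by about the same amount. *Casp8* encodes the initiator caspase of the death receptors. It read 10.53, 10.68, 10.43 and 10.59 in the rTFF2 cultures, against 10.39, 10.54, 10.47 and 10.45 in the control cultures. The groups overlapped, and the difference was 0.10 (SE 0.07, adjusted p = 0.36) with a 95% interval of -0.07 to 0.26.

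*Cflar* encodes cFLIP, a caspase-8 homologue that competes for its place at the receptor. Its brightest probe set, 1424996_at, read 9.46, 9.52, 9.52 and 9.41 in the rTFF2 cultures, against 8.84, 8.97, 8.99 and 8.88 in the control cultures. The mice were nearly alike, with differences of 0.62, 0.54, 0.53 and 0.53, and the fit gave 0.55 (SE 0.07, adjusted p = 0.0015), or 1.47-fold. Probe set 1425686_at read 7.26, 7.30, 7.24 and 7.12 with rTFF2, against 6.49, 6.90, 6.30 and 6.80 in controls (difference 0.61, adjusted p = 0.0093). Probe set 1449317_at read 6.94, 6.73, 6.81 and 6.39 with rTFF2, against 5.58, 6.33, 6.21 and 5.63 in controls (difference 0.78, adjusted p = 0.0089). Probe set 1425687_at read 6.07, 6.17, 6.01 and 6.27 with rTFF2, against 5.72, 5.49, 5.25 and 5.56 in controls (difference 0.62, adjusted p = 0.0030). In each of the 4 the lowest rTFF2 culture was above the highest control culture, and the folds lay between 1.47 and 1.72. With the *Actb* covariate the differences were 0.54, 0.73, 1.01 and 0.66 in the same order, and none of the 4 passed (adjusted p = 0.086 to 0.15).

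Of the inhibitor of apoptosis proteins, *Birc3* rose on both of its probe sets and *Birc2*, the gene next to it on chromosome 9, did not pass. *Birc3* encodes cIAP2. Its brighter probe set, 1421392_a_at, read 11.28, 11.07, 11.22 and 11.14 in the rTFF2 cultures, against 10.20, 9.94, 10.62 and 10.70 in the control cultures. The difference was 0.81 (SE 0.13, adjusted p = 0.0045), or 1.76-fold, with larger differences in mice 1 and 2 (1.08 and 1.12) than in mice 3 and 4 (0.61 and 0.44). The dimmer probe set, 1425223_at, read 6.00, 5.35, 5.65 and 5.28 with rTFF2, against 4.29, 4.55, 4.73 and 5.08 in controls. It rose by 0.91 (SE 0.21, adjusted p = 0.020), with 1.71, 0.80, 0.92 and 0.20 in mice 1 to 4, and lost its call without mouse 3 (adjusted p = 0.076) and with an offset of 32 (adjusted p = 0.10). With the *Actb* covariate neither probe set passed (adjusted p = 0.37 and 0.46), and their differences were 0.35 and 0.67.

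*Birc2* encodes cIAP1. It read 8.03, 7.66, 8.02 and 7.99 in the rTFF2 cultures, against 7.88, 7.85, 8.21 and 8.23 in the control cultures. The groups overlapped, with a difference of -0.12 (SE 0.09, 95% interval -0.32 to 0.09, adjusted p = 0.37). The members hold 3 pairs of genes that are next to each other, and for each pair the difference between the log2 signals of the 2 genes on the same array was set side by side in the groups. The pairs were taken after their values were seen. With rTFF2, *Cflar* gained 0.46 on *Casp8* (brightest probe set, 0.39 to 0.56 in single mice), *Birc3* gained 0.93 on *Birc2* (0.68 to 1.32) and *Ltb* lost on *Tnf* as given above. These values are a description, and no test of them was made.

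The rTFF2 cultures were more alike than the control cultures in most member probe sets. Of the 14 member probe sets above background, which belong to 9 genes, 12 had a smaller SD with rTFF2 than in controls, against 60.8% of all probe sets above background. As rounded, the SDs of both groups were equal for *Tnf* (0.42) and for *Birc3* 1425223_at (0.33). The control culture of mouse 2 was the highest control in 7 of the 14 and the lowest in 3, against 34.4% and 32.7% of all probe sets above background.

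The other genes of the pathway were counted in 6 lists, with the brightest probe set of each gene. The counts with the block are to be read beside the shares over all genes, of which 14.5% rose and 13.3% fell. For the counts without the block no share over genes was computed, and 11.7% of all probe sets rose and 10.1% fell there. No test of a list was made.

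Among other TNF superfamily ligands, 2 of 11 measured genes rose and 5 fell with the block, and 2 rose and 3 fell without it (median difference -0.14). The *Actb* covariate left 1 that rose (*Tnfsf14*) and 2 that fell (*Tnfsf8* and *Tnfsf4*). *Tnfsf14*, which encodes LIGHT, a second ligand of the lymphotoxin beta receptor, averaged 6.88 ± 0.23 with rTFF2 and 4.46 ± 0.16 in controls (SD, n = 4), a rise of 2.42 (adjusted p = 1.2e-04). *Tnfsf9*, the ligand of 4-1BB, rose by 0.71 (adjusted p = 0.0025). *Tnfsf8*, the ligand of CD30, averaged 5.07 ± 0.37 with rTFF2 and 7.88 ± 0.48 in controls and fell by 2.81 (adjusted p = 5.2e-04). *Tnfsf4*, the ligand of OX40, was at background with rTFF2 (2.92, against 3.87 in controls), at least 1.89-fold lower with rTFF2 by the ratio of the control level to the background level (adjusted p = 6.2e-04). *Lta* was close to background, with 2.24 in rTFF2 cultures and 3.06 in controls, at least 1.08-fold lower with rTFF2 (adjusted p = 0.013, 0.061 without the block, and 0.17 with an offset of 32). Without mouse 3 or 4, 3 genes of the list fell. The other 2 that fell, named after their values were seen, were *Cd70*, under background in both groups, and *Tnfsf13b*, which encodes BAFF (-0.79, adjusted p = 0.019, and 0.16 without the block). *Fasl* and *Tnfsf10*, the ligands of Fas and of the TRAIL receptor, also named after their values were seen, were under background in both groups (2.11 and 2.23 with rTFF2, against 2.24 and 2.38 in controls).

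Among other receptors of the superfamily, 4 of 21 measured genes rose and 2 fell (median -0.11). The *Actb* covariate left 0 that rose and 1 that fell (*Cd40*). *Ltbr*, the receptor of the lymphotoxins and LIGHT, averaged 6.24 ± 0.14 with rTFF2 and 5.54 ± 0.10 in controls, a rise of 0.71 (adjusted p = 0.0017). *Tnfrsf21*, the death domain receptor DR6, rose by 0.72 on its brighter probe set (adjusted p = 0.0039), and the other did not pass (0.41, adjusted p = 0.054). *Tnfrsf9*, which encodes 4-1BB, rose by 0.77 in 4 of 4 mice with the block (adjusted p = 0.014), but the mice differed so much from each other (9.68 ± 1.03 with rTFF2, against 8.91 ± 1.49 in controls) that it did not pass without the block (0.50). Its nearly as bright second probe set did not pass (0.58, adjusted p = 0.057). The call of the brightest probe set was lost without mouse 1 (0.055) and with an offset of 32 (0.056). It was also lost with the *Actb* covariate, where the difference was 0.03 (0.94). The other that rose was *Tnfrsf13b* (0.33, adjusted p = 0.040), named after its values were seen. *Cd40*, a receptor of antigen-presenting cells, averaged 3.08 ± 0.16 with rTFF2 and 4.34 ± 0.10 in controls and fell by 1.26 (adjusted p = 2.7e-04). Its level with rTFF2 was close to background, which limits how well the size of the fall is known. The other probe set of *Cd40* fell as well and was under background with rTFF2 (2.82, against 4.21 in controls, adjusted p = 0.0023). *Tnfrsf11a*, which encodes RANK, fell by 0.35 (adjusted p = 0.040) on its brighter probe set, and the other, at or under background, did not pass. That call was lost without mouse 1, 3 or 4 (adjusted p = 0.076, 0.12 and 0.11), and without mouse 1 the list held 2 genes that rose and 1 that fell.

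Among the adaptors, kinases and ubiquitin editors of TNF receptors, 6 of 26 measured genes rose and 2 fell (6 and 1 without the block, median 0.12). The *Actb* covariate left 1 that rose (*Map3k5*) and 0 that fell. *Map3k5*, which encodes the kinase ASK1, rose by 0.85 (7.14 with rTFF2, against 6.29 in controls, adjusted p = 0.0020), *Daxx* rose by 0.47 (adjusted p = 0.0033) and *Tab3*, a partner of the kinase TAK1, rose by 0.48 (adjusted p = 0.0084). *Traf5*, a TNF receptor-associated factor, fell by 0.81 (4.92 with rTFF2, against 5.73 in controls, adjusted p = 0.0011), and the adaptor gene *Cradd* fell by 0.33 (adjusted p = 0.017, 0.14 without the block, and 0.057 to 0.074 without mouse 1, 3 or 4). The adaptors that join TNFR1 and Fas to caspase-8, named after their values were seen, did not pass. *Tradd* averaged 7.12 with rTFF2 and 7.21 in controls, and *Fadd* averaged 4.36 with rTFF2 and 4.35 in controls. *Tnfaip3*, which encodes the ubiquitin editor A20 and was also named after its values were seen, averaged 3.12 with rTFF2 and 2.97 in controls, close to background.

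In the list of downstream caspases and their regulators, 2 of 14 measured genes rose and 3 fell, against 1 and 1 without the block (median 0.06). The share that rose was near that over all genes, and the *Actb* covariate left 0 that rose and 0 that fell. *Apaf1*, the scaffold of the apoptosome, rose by 0.32 (adjusted p = 0.028) and *Bcl10* by 0.30 (adjusted p = 0.025, and 0.061 without the block). A dimmer probe set of *Bcl10* rose as well (0.36, adjusted p = 0.016), and the dimmest did not pass (0.20, adjusted p = 0.096). *Apaf1* lost its call without mouse 1, 3 or 4 (adjusted p = 0.090 to 0.10) and *Bcl10* without mouse 1, 2 or 4 (0.069 to 0.090), so that 0 genes of the list rose without mouse 1 or without mouse 4. *Parp1*, a caspase substrate, fell by 0.62 (8.97 with rTFF2, against 9.59 in controls, adjusted p = 0.0017) and fell on its other 2 probe sets also. *Cycs* (cytochrome c) and *Diablo* fell by 0.38 and 0.32 on their brightest probe sets (adjusted p = 0.0069 and 0.028), without a call on their dimmer ones and without a call in the fit that left out the block (0.058 and 0.061). *Diablo* also lost its call without mouse 1, 2 or 4 (0.072 to 0.10).

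Among genes that act on TNF protein release or on its mRNA, 2 of 13 measured genes rose and 1 fell (median 0.08). The share that rose was near that over all genes, and the *Actb* covariate left 0 that rose and 0 that fell. *Adam17*, the protease that sheds TNF and its receptors from the cell surface, averaged 11.19 ± 0.09 with rTFF2 and 10.79 ± 0.10 in controls, and rose by 0.40 (adjusted p = 0.0082) and on its other 2 probe sets also. *Mapkapk2*, a kinase that stabilizes *Tnf* mRNA, rose by 0.31 (adjusted p = 0.037), with its call lost without mouse 1, 3 or 4 (0.11 to 0.14), with centred array medians (0.065) and with an offset of 32 (0.063). *Tial1*, an RNA-binding protein, fell by 0.29 (adjusted p = 0.023) on 1 of its 4 probe sets, and not without mouse 2, 3 or 4 (0.057 to 0.091).

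Of 27 measured genes known to be induced by TNF through NF-kB, 16 rose and 2 fell, against 13 and 2 without the block, and the median difference was 0.53. The 16 include *Tnfaip6*, named after its values were seen, which was under background in both groups (2.93 with rTFF2, against 2.60 in controls). With a filter on dim probe sets 15 rose, and with the *Actb* covariate 10 rose and 2 fell. The cytokine genes *Il6* (9.35 ± 0.65 with rTFF2, against 6.71 ± 1.29 in controls), *Il1b* (11.87 ± 0.16, against 10.36 ± 0.22 in controls) and *Ccl2* (12.26 ± 0.33, against 10.88 ± 0.35 in controls) rose by 2.64, 1.52 and 1.38 (adjusted p = 6.6e-04, 2.4e-04 and 4.2e-04). The dendritic cell activation marker *Cd83* averaged 5.78 ± 0.14 with rTFF2 and 7.66 ± 0.18 in controls and fell by 1.88 (adjusted p = 1.9e-04), and the chemokine gene *Ccl5* fell by 2.18 (adjusted p = 0.0031). Many of these genes are also expressed at different levels by neutrophils and by dendritic cells, whose markers moved with the groups as given above, and that part was not tested.

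**Figure D3:**
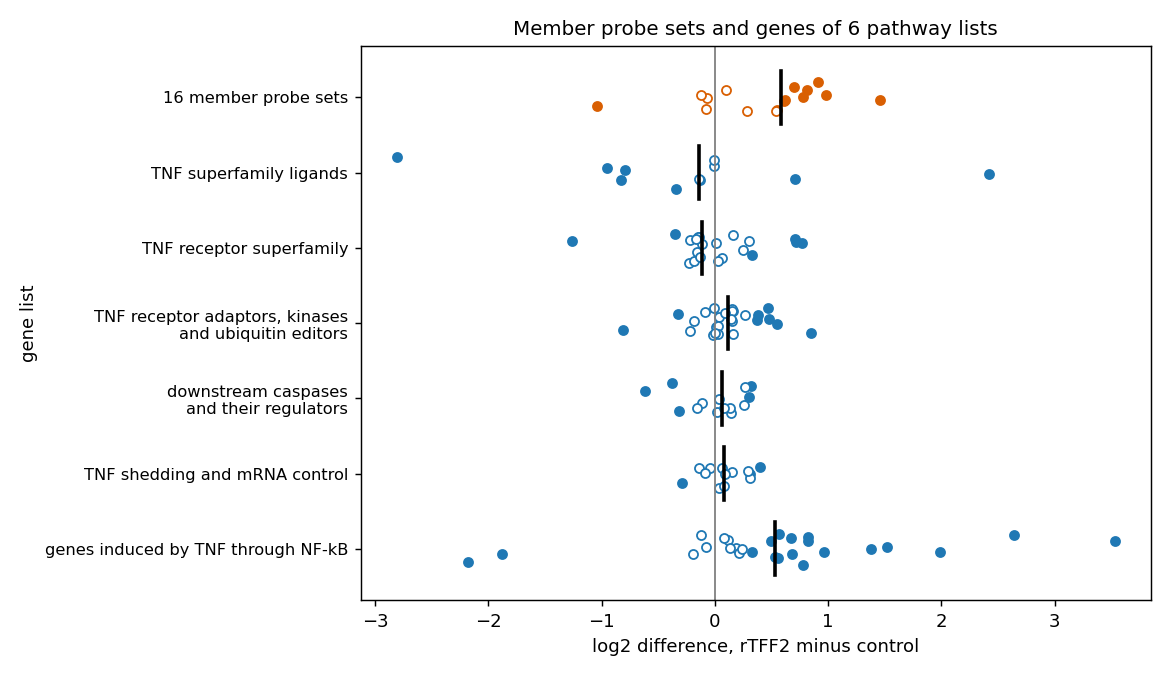
Log2 difference, rTFF2 minus control (x axis), of the 16 member probe sets and of the brightest probe set of each measured gene in 6 pathway lists (rows). Filled points passed the threshold and black bars are medians, which lie at 0.58 for the members, at 0.53 for the genes induced by TNF through NF-kB and between -0.14 and 0.12 for the other 5 lists; the point at 3.53 is *Ptgs2*, named after its values were seen.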

How the data were processed

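RNA of 8 cultures from 4 mice was measured on Affymetrix mouse expression arrays, 1 per culture. The authors turned the scans into log2 values with GCRMA, which corrects background by probe base content, normalizes the arrays together and summarizes each probe set, so that differences of dim probe sets depend on that correction. Versions in the submitters' processing notes are 2.30.0 for GCRMA and 1.36.0 for affy. Groups came from the labels, and cultures with the same number in their titles were taken as those of the same mouse. The sorted cells were divided between the cultures per the methods, which pairs them. Deviations from the group means correlated at 0.05, 0.53, 0.30 and 0.38 within mice 1 to 4 and at -0.53 to 0.33 between mice, over 14137 probe sets above background. The values of mice 1 and 3 lay inside the range between mice, so that they do not show the pairing by themselves.

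Probe sets were named by the platform annotation (20380 with 1 symbol, 691 with several, 1555 with none), and 10 of 10 member symbols were found in the RefSeq table. After 64 control probe sets were left out, 22626 were fitted with lmFit and eBayes of limma 3.58.1 (R 4.3.3) with the mouse as a block, which left 3 residual degrees of freedom before the prior. The methods name limma without a pairing, so the fit without the block was an alternative. The fit was tested on simulated data. The number of arrays limits the precision.

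The members and lists were chosen with earlier results of these data known. Named genes are all members and, in each of 6 pathway lists, up to 3 genes in each direction with the smallest adjusted p above background. Genes outside this rule are marked in the text as named after their values were seen. A gene of a list was its brightest probe set. Markers of erythroid cells (1 of 7 above background, 0 called) and of stromal and endothelial cells (1 of 12 above background, 1 higher and 2 lower) were read too.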

Additional observations from a re-analysis of the deposited data

Results flagged for a closer look

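In the rTFF2 cultures *Birc2* had 1 value far from the others. Mouse 2 read 7.66, while the other 3 mice read 7.99 to 8.03, a gap of 0.911 of the range of the group, over the critical value of Dixon's test at 95% for 4 samples. Chance alone puts about 1 in 20 groups past that value, and 32 groups of 4 were looked at. The control culture of mouse 2 read 7.85.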

How the results depend on the processing

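The results were recomputed without the mouse as a block, with a filter on dim probe sets, with centred array medians, a further quantile normalization, array weights, a robust prior with a trend, 32 added before the log, the *Actb* covariate and without each mouse. No member probe set changed its direction in these settings, and of their comparisons with these settings 179 kept direction and side of the threshold, 10 lost the call and 1 (*Tnf* without mouse 2) gained it. Without the block 4927 probe sets were called, against 5811 with the pairing, and 9 and 1 member probe sets, as with it. The *Actb* covariate lowered the counts most: 2 member probe sets higher, 12 and 5 pathway genes higher and lower (32 and 15 in the main result) and 1588 probe sets in all. The cause was not tested; the covariate differs between the groups and takes 1 residual degree of freedom. With an offset of 32, *Cflar* 1449317_at (adjusted p = 0.051) and *Birc3* 1425223_at (0.10) lost their calls. Leaving out each mouse gave 3609 (without mouse 1) to 5006 (without mouse 2) probe sets called, 3791 without mouse 3, 9 (without mouse 4) to 13 pathway genes lower and 8 to 10 member probe sets higher; fewer arrays were fitted there. Of the named pathway probe sets 285 comparisons kept their call and 51 lost it. When the probe sets of each gene were averaged, *Tnfrsf1b* rose by 0.63 (adjusted p = 0.0027), *Cflar* by 0.64 and *Birc3* by 0.86. *Tnfrsf10b* was under background, so that these arrays set no limit on its change.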
